A study of Mus musculus with 54 samples.

Results

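The late maturation of wild-type (WT) mouse retina was described by setting 4 arrays of postnatal day (PN) 21, 28 and 35 against 5 arrays of PN13 and PN15. All 9 arrays came from neural retina dissected from WT mice of the C3H strain. They were chosen by genotype and age alone, from 54 arrays that cover 12 ages in WT mice and in mice homozygous for rd1, a mutation that ends in loss of the rods. PN13 had 3 arrays, PN15 and PN21 had 2 each, and PN28 and PN35 had 1 each. Every one of the 18193 genes with an annotated symbol was tested. Arrays of an age are biological replicates per the labels, but how many animals went into each is not given. The p-values of the gene tests therefore measure the spread between RNA samples of the same genotype and age, which may be technical. That spread was pooled over all 54 arrays and leaves out differences between the ages within a window. No treatment or transgene is listed for the WT mice. PN13 and PN15 are called early and PN21 to PN35 late below.

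In these weeks the mouse opens its eyes and pattern vision begins. Rods and cones, the light sensors, lengthen outer segments that hold the phototransduction cascade, in which light-activated opsin, transducin and a cyclic GMP phosphodiesterase close a cation channel. Their inner segments hold mitochondria and also ferment much glucose to lactate, with hexokinase as the entry step. Neurons of the inner retina stop extending neurites, the retinal vessels finish their deep layers, and synapses exchange juvenile receptor subunits for adult ones.

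Median intensity over all probe sets lay between 127.2 and 133.6 on every array. Pearson's r over genes within an age lay between 0.996 and 0.998 (5 pairs of WT arrays, genes not being independent replicates). Neural retina markers were present on all 9 arrays, and the mean log2 intensity of the rod list, for one, lay between 12.03 and 12.44. Some arrays stood apart in muscle, lens or interferon-induced transcripts. The mean level of 17 skeletal muscle genes was 5.92 to 6.11 log2 units on the early arrays, 6.15 on both PN21 arrays, 6.32 at PN28 and 6.67 at PN35. The 20 lens genes averaged 6.69 to 7.39 on the early arrays and 7.98, 7.70, 6.48 and 7.56 on the late ones. The 17 interferon and antigen presentation genes averaged 7.54 to 8.03 at PN13, 7.00 and 7.02 at PN15, 7.88 and 7.13 at PN21, 8.26 at PN28 and 7.60 at PN35.

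From the early to the late arrays, 2636 genes rose and 2776 fell (limma's moderated test, Benjamini-Hochberg adjusted p under 0.05). These are 14.5% and 15.3% of the genes tested, and every count of list members below is to be read against those shares. Most changes were small. Of the 5412 genes called, 92.6% changed by less than 1.5-fold, 331 by 1.5 to 2-fold, and 68 by 2-fold or more (25 higher, 43 lower). The late arrays all lay above the early ones for 12.1% of all genes and all below for 11.3%. The median late difference over all genes was 0.03 log2 units. When each array was centred on amacrine and ganglion cell genes it was 0.31, and every late difference moved up by the same amount. Centring subtracted the median level of these genes on each array, which does not hold the genes themselves unchanged. The median late difference was then 0.26 for the amacrine list and 0.11 for the ganglion cell list. On that scale 13070 genes were higher and 441 lower, so counts and medians below hold for the deposited scale, and centred values are given for lists whose balance turned. Differences below are late minus early in log2 units with the standard error of the fit after the sign ±, from 4 against 5 arrays. PN28 and PN35, with 1 array each, were assumed to vary like the replicated ages. In whole retina, fewer cells of a type and less RNA per cell cannot be told apart.

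**Figure D1:**
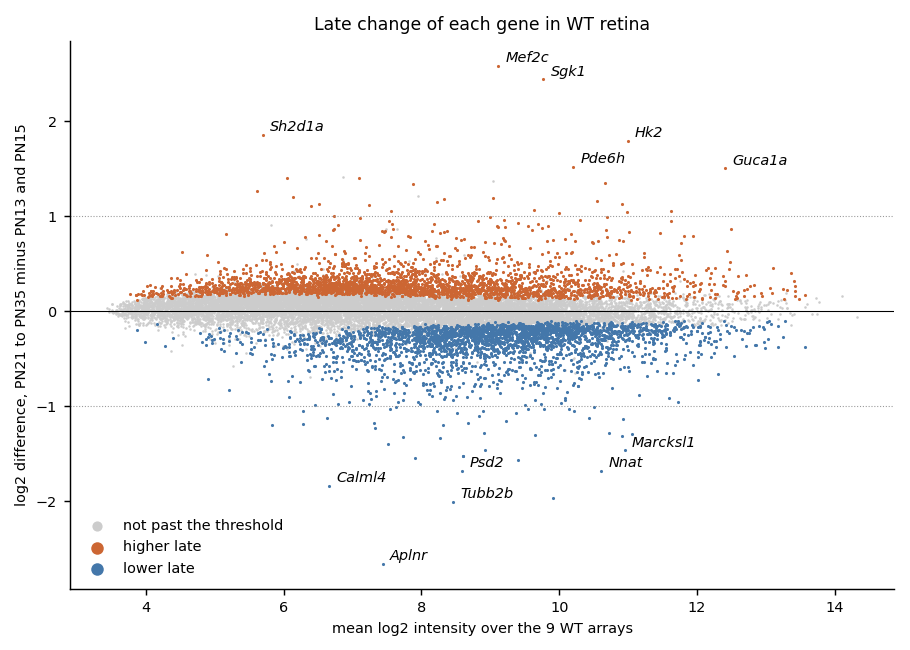
Late change of each of the 18193 genes in WT retina (vertical axis, log2 difference) against its mean log2 intensity over the 9 arrays (horizontal axis). Orange genes rose and blue genes fell at an adjusted p under 0.05, grey genes did not pass, and dotted lines mark 2-fold. Mef2c (2.58) and Sgk1 (2.44) lie highest and Aplnr (-2.66) lowest.

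The largest rise was that of Mef2c, a transcription factor of the MEF2 family, on chromosome 13. Its log2 intensity was 7.64, 7.24 and 7.61 at PN13, 8.75 and 8.58 at PN15, 10.41 and 10.27 at PN21, 10.65 at PN28 and 10.86 at PN35. Every late array lay above every early one, which was a condition for naming the largest rises. The difference was 2.58 ± 0.09, or 5.99-fold (limma, adjusted p = 1.28e-24). All 5 of its probe sets were higher late, by 2.03 to 2.68. Mef2c had already risen by 0.87 from PN9 to PN13, and it rose by 1.17 from PN13 to PN15 and by 1.67 from PN15 to PN21. From PN21 to PN28 and PN35 the difference was 0.42 ± 0.13 and did not pass the test (limma, adjusted p = 0.126).

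Sgk1, a kinase that is induced by corticosteroids and regulates ion transport, followed with 2.44 ± 0.09 (chromosome 10, limma adjusted p = 4.81e-23). It measured 8.71, 8.42 and 8.45 at PN13, 8.94 and 8.89 at PN15, 10.56 and 10.49 at PN21, 11.55 at PN28 and 11.89 at PN35. It rose further after PN21, by 1.20 ± 0.14. Sh2d1a, an adaptor protein known from lymphocytes, rose by 1.86 ± 0.10 from a low level, measuring 4.38 to 5.46 on the early and 6.18 to 7.09 on the late arrays. Glb1l3, a galactosidase-like gene, rose by 1.40 ± 0.06, and did so in each of the 3 steps between ages (0.66, 0.69 and 0.62). Apela, which encodes a peptide ligand of the apelin receptor, rose by 1.40 ± 0.09, from 6.11 to 6.90 on the early arrays to 7.66 to 8.16 on the late ones. Faim, an inhibitor of Fas-induced cell death, rose by 1.34 ± 0.08, and Cds1, an enzyme of phosphatidylinositol synthesis, by 1.13 ± 0.11. Syne1, which links the nucleus to the cytoskeleton, rose by 1.16 ± 0.08 (9.83 to 10.25 early, 10.82 to 11.46 late), though a dim probe set differed by -0.05. Jade2, a chromatin protein, rose by 1.15 ± 0.10, with 0.22 on its second probe set, and Dleu7 by 1.20 ± 0.07. With the mean of all probe sets Syne1, Jade2 and Apela rose by 0.55, 0.68 and 0.86. Cck, the peptide cholecystokinin of amacrine cells, rose by 1.12 ± 0.11 (5.66 to 6.46 early, 6.95 to 7.54 late). The early and late arrays did not overlap for any of these genes. Lack of overlap was a condition for naming the largest rises and falls. It is therefore not a separate finding for these genes, nor for the leading rises and falls given below.

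Promoters of a rod and a cone gene that rose are shown, both of which hold a match to the letters given below. The windows reach from 250 bases before to 50 bases after the annotated start (RefSeq sequence, build GRCm38.p6, gene strand, 5′ to 3′). Capitals mark the letters TAATCC, a core recognised by photoreceptor homeobox factors, searched on both strands. In both windows the match runs on the opposite strand, at position -57 from the start in Guca1a and -19 in Gnat2. The windows of Pde6h, Arr3 and Grk1, rod or cone genes that also rose, held no match.
Guca1a, chr17:47400557-47400856, minus strand: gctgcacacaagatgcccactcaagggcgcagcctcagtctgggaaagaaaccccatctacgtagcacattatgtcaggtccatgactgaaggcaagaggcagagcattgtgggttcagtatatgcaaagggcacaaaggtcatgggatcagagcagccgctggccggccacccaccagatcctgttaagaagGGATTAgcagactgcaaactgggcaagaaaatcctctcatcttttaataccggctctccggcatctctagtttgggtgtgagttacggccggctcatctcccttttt
Gnat2, chr3:108092816-108093115, plus strand: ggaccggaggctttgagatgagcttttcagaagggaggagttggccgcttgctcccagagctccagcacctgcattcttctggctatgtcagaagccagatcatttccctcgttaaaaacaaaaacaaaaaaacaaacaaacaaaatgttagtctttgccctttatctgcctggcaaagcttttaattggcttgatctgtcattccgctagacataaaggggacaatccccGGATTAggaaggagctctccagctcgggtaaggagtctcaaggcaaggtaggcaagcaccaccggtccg

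A window was held for 14452 of the genes tested, and TAATCC occurred in 7.29% of them. It occurred in 7 of 14 rod genes and in 2 of 8 cone genes with a window. Among genes that rose by 1.5-fold or more late it occurred in 7.48%, a share near that of all genes. A match describes letters and not a bound site.

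Of the 20 measured genes of rod phototransduction, 10 rose and none fell, with a median difference of 0.21 beside 0.03 over all genes (0.49 beside 0.31 when each array was centred on amacrine and ganglion cell genes). The largest rise was that of Guca1a, which encodes the calcium sensor that activates guanylate cyclase in photoreceptors. Guca1a measured 11.43, 11.15 and 11.57 at PN13, 12.21 and 12.32 at PN15, 13.12 and 13.09 at PN21, 13.40 at PN28 and 13.36 at PN35, with no overlap between the windows. The rise was 2.84-fold (limma, adjusted p = 7.01e-17). Rgs9bp, the membrane anchor of the protein complex that shuts off transducin, rose by 0.79 ± 0.08, Grk1, the kinase that silences rhodopsin, by 0.55 ± 0.10, and Gucy2e, the guanylate cyclase itself, by 0.50 ± 0.12. Of the rod phosphodiesterase, the catalytic subunit Pde6a rose by 0.54 ± 0.15, while the catalytic subunit Pde6b (0.19) and the inhibitory subunit Pde6g (0.14) did not pass. Gnat1, rod transducin, measured 13.93 to 14.12 early and 14.15 to 14.27 late, near the top of the scale that reached 14.41, and its difference of 0.16 ± 0.19 did not pass. The members that moved included the cyclase, its activator and the proteins that end the response.

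Among 12 cone genes 5 rose, 1 fell and the median was 0.20. Pde6h, the inhibitory subunit of the cone phosphodiesterase, measured 9.42, 9.05 and 9.28 at PN13, 9.98 and 9.92 at PN15, 10.87 on both PN21 arrays, 11.25 at PN28 and 11.21 at PN35. The windows did not overlap, and the rise was 1.52 ± 0.15 (limma, adjusted p = 8.63e-11). Gnat2, cone transducin, rose by 0.84 ± 0.06, from 10.40 to 10.85 early to 11.34 to 11.62 late. Arr3, cone arrestin, rose by 0.72 ± 0.10. Of the opsins, Opn1sw, the short wavelength opsin, rose by 0.63 ± 0.07, and Opn1mw, the middle wavelength opsin, differed by 0.24 without passing. The member that fell, Gngt2, the cone transducin gamma subunit, differed by -0.18, a size that centring on inner retinal genes would turn.

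The 20 genes of outer segment structure and cilium moved both ways, with 5 higher, 4 lower and a median of 0.04, near that of all genes. Fscn2, an actin bundling protein of photoreceptors, rose by 0.95 ± 0.11 (8.16 to 8.54 early, 9.24 to 9.42 late). Prph2, which shapes the rim of the outer segment discs, rose by 0.79 ± 0.13 (11.27 to 11.70 early, 11.89 to 12.55 late). Rpgr, a protein of the connecting cilium, fell by 0.83 ± 0.12, and its partner Rpgrip1 by 0.38 ± 0.08. Of 13 photoreceptor transcription factors, 3 rose and 5 fell (median -0.07, and 0.21 with 3 lower and 7 higher when centred). Beside Mef2c, Esrrb, a nuclear receptor of rods, rose by 0.82 ± 0.13. Samd11 fell by 0.91 ± 0.08 and Prdm1, which directs precursors away from the bipolar fate, by 0.77 ± 0.07. Nrl, which sets rod identity, had an adjusted p of 0.0426 (limma) at 0.13, and its call was lost without any 1 of the PN13 arrays, PN21 replicate 1 or PN35 (0.11 to 0.13). With the mean of all probe sets Esrrb rose by 0.47 and Samd11 fell by 0.56. Crx, the cone and rod homeobox factor, differed by 0.04 and did not pass.

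**Figure D2:**
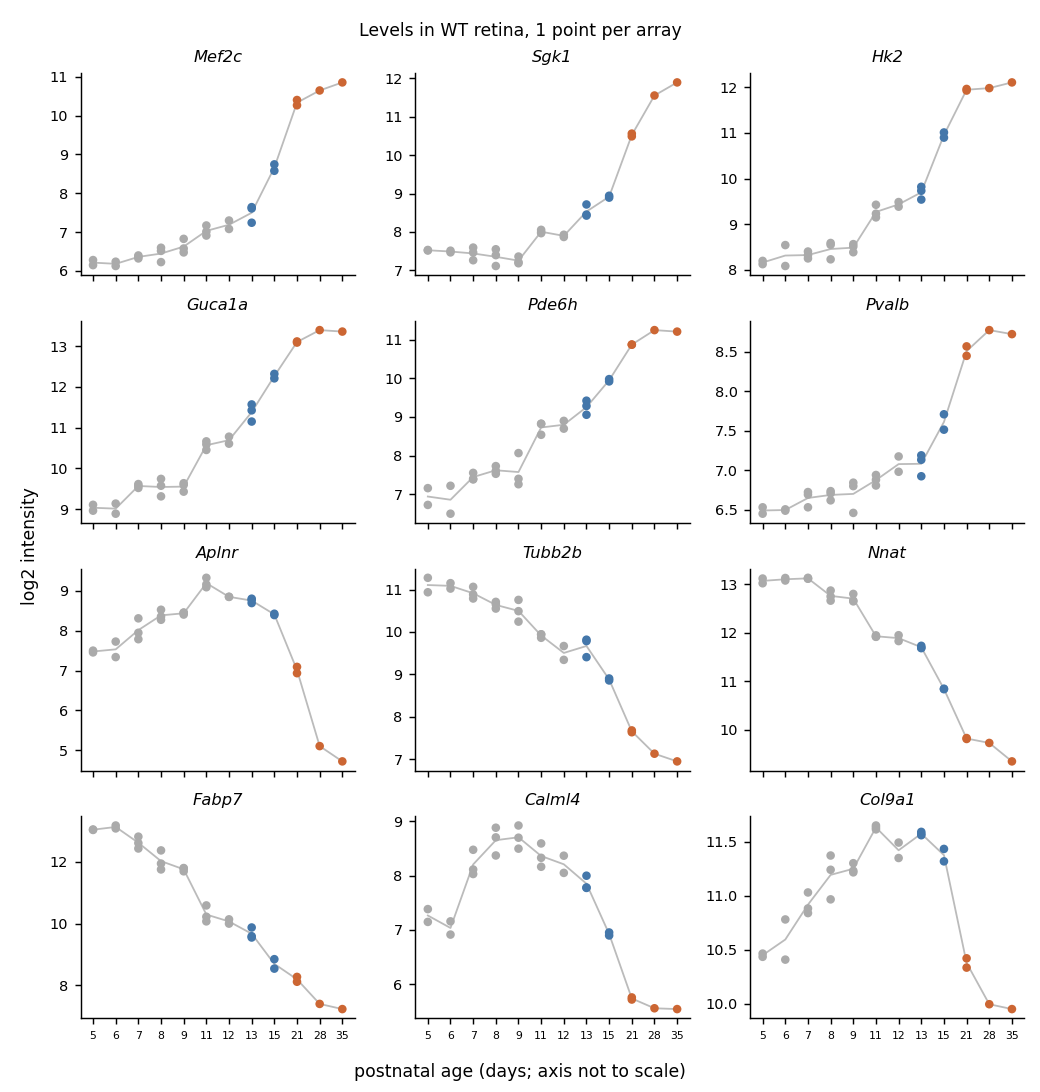
Log2 intensity (vertical axis) of 12 genes in WT retina at each age from PN5 to PN35 (horizontal axis, evenly spaced), with 1 point per array and a grey line through the means of the ages. Blue points are the PN13 and PN15 arrays, orange points those of PN21 to PN35, and grey points younger ages. Mef2c stays below 7.7 until PN13 and passes 10.2 at PN21, while Aplnr is highest at PN11 and lowest at PN35 (4.72).

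Of 25 measured glycolysis genes 17 rose, 2 fell and the median was 0.23. The list averaged 10.67 to 10.74 on the PN13 arrays, 10.90 and 10.88 at PN15, and 10.98 to 11.02 on the late arrays. With PN15 alone as the early window, which uses fewer arrays, 2 members rose and 1 fell, with a median of 0.14. Hk2, the hexokinase typical of glycolytic cells, measured 9.73, 9.54 and 9.82 at PN13, 11.01 and 10.90 at PN15, 11.96 and 11.93 at PN21, 11.98 at PN28 and 12.10 at PN35. It rose by 1.79 ± 0.09 (limma, adjusted p = 2.87e-19) with no overlap, and most of that lay before PN21: 1.26 from PN13 to PN15 and 0.99 from PN15 to PN21, against 0.10 after it. The other members moved less. Aldoc, an aldolase, rose by 0.44 (0.20 with the mean of its probe sets), Tpi1, triose phosphate isomerase, by 0.37, and Pfkl and Pfkp, subunits of phosphofructokinase, by 0.36 and 0.35. The members that fell were transporters, Slc16a7 of monocarboxylates (-0.33) and Slc2a1 of glucose (-0.22, a size that centring would turn). Among visual cycle genes 5 of 11 rose and 1 fell (median 0.13), the latter being Rdh10, a retinol dehydrogenase (-0.66 ± 0.06).

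Of 37 oxidative phosphorylation genes none rose and 15 fell, with a median of -0.11, and of 24 genes of the TCA cycle and creatine kinases 1 rose and 11 fell, with a median of -0.12. Both medians turned positive, to 0.17 and 0.16, when arrays were centred on amacrine and ganglion cell genes, where the median of all genes was 0.31, and their counts to 19 higher and none lower and to 12 higher and none lower. Atp5o, a subunit of the ATP synthase, fell by 0.41 ± 0.05 and Cox6c, of cytochrome c oxidase, by 0.36 ± 0.04. Sdha, of succinate dehydrogenase, was the TCA member that rose (0.23), while Sdhb, Sdhc and Sdhd differed by -0.24, -0.20 and -0.36, the former pair by less than the centring shift. Atp5o, Cox6c, Sdhd and Psmb3 kept their sign when centred but no longer passed (-0.13, -0.08, -0.08 and -0.10). The 34 proteasome genes had a median of -0.12 with 15 lower and none higher (0.16 when centred, with 14 higher and none lower), and Psmb3, a core subunit, fell by 0.38 ± 0.08. Ribosomal protein genes had a median of -0.05 (0.23 when centred), with 1 of 21 higher and 5 lower.

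Genes of neurite growth and axon guidance had the lowest median of the 47 lists. Of 36 measured members 30 fell and 1 rose, and the median was -0.38 (-0.10 when centred, with 14 lower and 5 higher). Tubb2b, a beta tubulin of growing neurons, measured 9.82, 9.41 and 9.78 at PN13, 8.90 and 8.86 at PN15, 7.64 and 7.68 at PN21, 7.13 at PN28 and 6.95 at PN35. The windows did not overlap, and the fall was 4.01-fold (-2.01 ± 0.11, limma adjusted p = 5.74e-18). Marcksl1, which binds actin at the membrane, fell by 1.47 ± 0.04, in each of the 3 steps (-0.55, -0.90 and -0.48). Sox4, a transcription factor of young neurons, fell by 1.28 ± 0.07, Dcx, doublecortin of migrating neurons, by 1.23 ± 0.06, and Gap43, of growth cones, by 0.79 ± 0.06. With the mean of all their probe sets Sox4 fell by 0.69 and Dcx by 0.45. The member that rose was Epha4, an ephrin receptor (0.23).

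Nnat, neuronatin, was among the other leading falls. It measured 11.69, 11.68 and 11.73 at PN13, 10.84 and 10.85 at PN15, 9.81 and 9.83 at PN21, 9.73 at PN28 and 9.35 at PN35, and fell by 1.68 ± 0.06 (limma, adjusted p = 5.93e-24). It fell from PN13 to PN15 (-0.86) and from PN15 to PN21 (-1.02), and had also fallen from PN9 to PN13. Fabp7, a fatty acid binding protein of radial and young glia, measured 9.55 to 9.87 at PN13, 8.84 and 8.54 at PN15, 8.11 and 8.27 at PN21, 7.39 at PN28 and 7.22 at PN35, and fell by 1.53 ± 0.10. Nnat and Fabp7 showed no overlap between early and late arrays, which was a condition for naming the leading falls. Crabp1, which binds retinoic acid, fell by 1.34 ± 0.07 and Calml4, a calmodulin-like protein, fell by 1.84 ± 0.11. Cks1b, a cofactor of cyclin-dependent kinases, fell by 1.55 ± 0.08. Of 33 listed cell cycle and progenitor genes, which do not include Cks1b, 5 fell and 2 rose, with a median of -0.04 (0.24 when centred). Tmem26 fell by 1.40 ± 0.07 (7.97 to 8.29 early, 6.33 to 7.08 late), and Ly6h, a GPI-anchored protein of neurons, differed by -1.31 ± 0.10 and passed (9.93 to 10.56 early, 8.70 to 9.27 late). Psd2, an exchange factor of ARF proteins, fell by 1.68 ± 0.11 (9.13 to 9.53 early, 7.24 to 8.28 late). Prrc2a fell by 1.29 ± 0.22 on its brightest probe set, while its other probe sets differed by -0.07 and 0.01. Averaged over all probe sets Prrc2a fell by 0.45 and Tmem26 by 0.89. Setd5, a chromatin protein, fell by 1.52 with an adjusted p of 0.0446 (limma), and its early arrays ranged from 8.24 to 10.03. Its other probe sets differed by -0.16 and -0.99. Its call was lost without any 1 of PN13 replicate 1 or 3, PN15 replicate 1, both PN21 arrays, PN28 or PN35, with values between -1.34 and -1.64.

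Of 27 endothelial and pericyte genes 13 fell, 1 rose and the median was -0.18 (0.10 when centred, with 10 higher and 5 lower, beside 0.31 for all genes). Aplnr, the apelin receptor of sprouting endothelium, measured 8.77, 8.70 and 8.81 at PN13, 8.43 and 8.39 at PN15, 6.93 and 7.09 at PN21, 5.10 at PN28 and 4.72 at PN35. It fell 6.32-fold (-2.66 ± 0.09, limma adjusted p = 1.87e-24), by 1.40 from PN15 to PN21 and by a further 2.10 after PN21. Its second probe set differed by -0.63, and the mean of both by -1.64. Its ligand Apln fell by 0.64 ± 0.11, while Apela, which encodes the other ligand of the receptor, rose as given above. Cd93, a receptor of endothelial cells, fell by 1.32 ± 0.10 (7.93 to 8.53 early, 7.72, 7.59, 6.72 and 5.97 late), though 3 of its dimmer probe sets differed only by -0.27, -0.11 and 0.15 and the mean of all 5 by -0.55. Tie1, a receptor kinase of endothelium, fell by 0.90, Cldn5, the claudin of the blood-retina barrier, by 0.78, and Plvap, a protein of leaky endothelium, rose by 0.25.

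Genes of the extracellular matrix fell as well, 15 of 27, with 2 higher and a median of -0.25 (0.03 when centred, with 10 lower and 6 higher). Col9a1, a collagen of the vitreous and cartilage, measured 11.56 to 11.59 at PN13, 11.32 and 11.44 at PN15, 10.34 and 10.42 at PN21, 10.00 at PN28 and 9.95 at PN35. It fell by 1.32 ± 0.07 without overlap. Col2a1, which shares its fibrils, fell by 0.96 ± 0.07, and Col4a1 and Col4a2, the pair of the vascular basement membrane, by 0.80 and 0.73. Ncan, neurocan of the perineuronal matrix, fell by 0.88 ± 0.07 (0.52 with the mean of its probe sets), whereas Hapln4, a link protein of the same matrix, rose by 0.54 ± 0.10.

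Markers of the inner retinal cell types and glia are given next, and for each list the balance of calls turned or shifted when arrays were centred on amacrine and ganglion cell genes. Of 19 ganglion cell genes 9 fell and 1 rose (median -0.17, and 0.11 with 5 lower and 7 higher when centred). They included Stmn2 and Gap43, which the neurite list also holds, Pou4f1, a transcription factor of ganglion cells (-0.58 ± 0.07), and Nefm, a neurofilament subunit (-0.51), while Thy1, a surface marker of these cells, differed by 0.06 and did not pass. Of 26 bipolar genes 6 fell and 4 rose (median -0.10, and 0.18 with 2 lower and 13 higher when centred). Those that fell included Isl1 (-0.65), a transcription factor of bipolar and amacrine cells, and Lhx4 (-0.51). Those that rose included Rgs9bp (0.79), which the rod list also holds, and Nyx (0.42). Of 25 amacrine genes 5 rose and 3 fell (19 and 2 when centred). Vip (0.47) and Gad1 (0.27), which makes GABA, were among those that rose, and Npy (-0.52) and Prox1 (-0.49) among those that fell. Of 10 horizontal cell genes 5 fell and none rose (median -0.19, and 0.09 with 2 lower and 4 higher when centred), led by Gja1 (-0.98, and -0.61 with the mean of its probe sets) and Ndrg1 (-0.73), which other cells also express. Of 24 Müller glia genes 7 fell and 3 rose (median -0.02, and 0.26 with 5 lower and 15 higher when centred). Crym, a thyroid hormone binding protein, fell by 0.94, Id3 by 0.87, Vim, the intermediate filament vimentin, by 0.58 and Slc1a3, the glial glutamate transporter, by 0.55, while Glul, glutamine synthetase, differed by 0.10 and did not pass. Of 22 microglia and macrophage genes 9 fell and 1 rose (median -0.19, and 0.09 with 1 lower and 6 higher when centred), with C1qc, a complement subunit, at -0.58 ± 0.07. Most of this fall lay within the early window. The list averaged 7.19 to 7.27 on the PN13 arrays, 7.01 and 7.00 at PN15, and 6.94 to 7.01 on the late arrays. With PN15 alone as the early window, which uses fewer arrays, 1 member fell and 1 rose, and C1qc lost its call.

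Of 23 potassium and HCN channel genes 11 rose and 3 fell (median 0.18). Other channel and receptor lists had more falls than rises, with 8 lower and 5 higher of 25 sodium and calcium channels and pumps (median -0.05, 0.23 when centred), 6 and 3 of 19 glutamate receptors (median -0.12, 0.16 when centred), and 3 and 2 of 19 GABA and glycine receptor and chloride transport genes (median -0.06, 0.22 when centred). Kcnc2, a fast Kv3 channel, measured 8.42 to 8.67 at PN13, intermediate values at PN15, 9.82 on both PN21 arrays, 9.60 at PN28 and 9.55 at PN35, a rise of 0.89 ± 0.09 without overlap. Kcnj14, an inward rectifier, rose by 0.99 ± 0.18 and Kcna2, a Kv1 channel of axons, by 0.53 ± 0.09. Pvalb, the calcium buffer parvalbumin, measured 6.92 to 7.19 at PN13, 7.51 and 7.71 at PN15, 8.45 and 8.57 at PN21, 8.77 at PN28 and 8.72 at PN35, a rise of 1.34 ± 0.10. Parvalbumin is also a muscle protein, and the muscle list that holds it averaged 6.15 on both PN21 arrays, 6.32 at PN28 and 6.67 at PN35. Of 30 genes of ribbon synapses and vesicle release 8 rose and 2 fell, led by Vamp1, a vesicle fusion protein (0.60 ± 0.07), and Cplx4, a complexin of photoreceptor terminals (0.53 ± 0.10).

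Ratios between 2 members of a family, taken within each array, do not depend on the scale of the array. Of 24 listed pairs 22 could be measured, and 16 changed between the windows (exact permutation test over all choices of 4 of the 9 arrays, 2-sided, adjusted over the 22 pairs). With the mean of all probe sets 9 pairs passed. With all 9 arrays the smallest p that this test can give is 0.0159, and the smallest adjusted value was 0.0249. Without PN21 replicate 2, PN28 or PN35 no pair passed, and without PN21 replicate 1 there were 17. Leaving out an array leaves fewer choices and so raises the smallest possible p, most of all for a late array. These counts therefore cannot tell whether the changes rest on single late arrays. The NMDA receptor ratio of Grin2a, the adult subunit, to Grin2b, the juvenile one, lay between -2.85 and -2.58 log2 units early and between -2.40 and -1.62 late. Glra1 rose relative to Glra2, the juvenile glycine receptor subunit, by 0.49, and Slc12a5, the chloride exporter of mature neurons, relative to Slc12a2, the importer, by 0.46. Among sodium channels Scn8a rose relative to Scn2a by 0.45, and among hexokinases Hk2 relative to Hk1 by 1.61. Igf1 fell relative to Igf2 by 0.92, and Dnmt3a, a de novo DNA methyltransferase, relative to Dnmt3b by 0.93. Opn1mw fell relative to Opn1sw by 0.39. Levels of the 2 members of a pair are on different probe sets, so the ratios show their unequal change and not which member is more abundant. The pair of Syt1 and Syt2 (0.00, exact permutation p = 0.921) and that of the sodium pump subunits Atp1b1 and Atp1b2 (-0.09, exact permutation p = 0.143) did not pass.

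**Figure D3:**
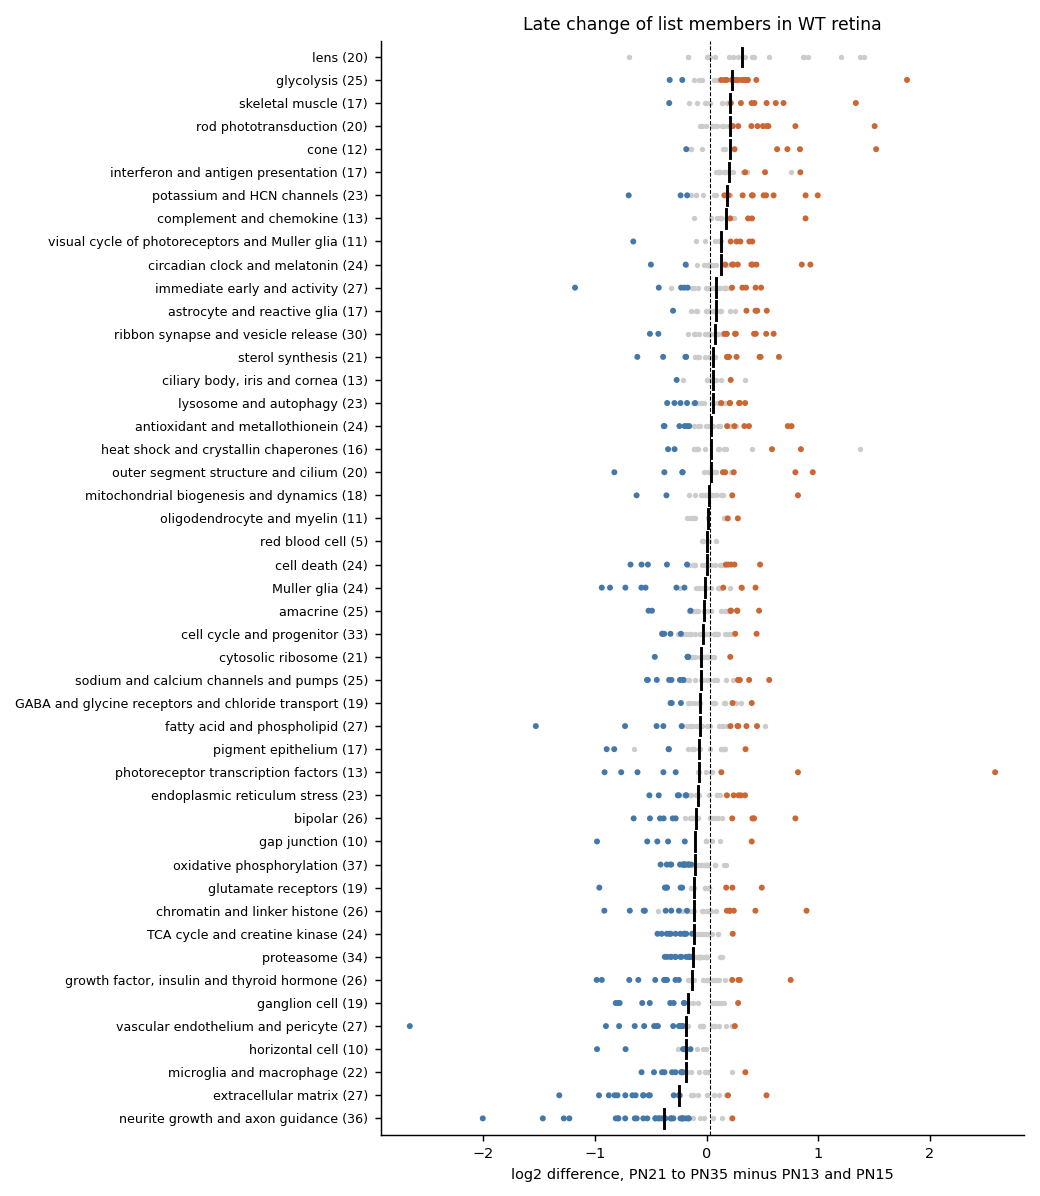
Late minus early log2 difference (horizontal axis) of each measured member of 47 gene lists in WT retina, with the number of members in brackets. Orange and blue points are members that rose or fell at an adjusted p under 0.05, grey points did not pass, black ticks are list medians and the dashed line is the median of all genes (0.03). The neurite list has the lowest median (-0.38). The lens list has the highest (0.31) with no member past the test.

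Of 24 circadian and melatonin genes 9 rose and 2 fell (median 0.13). With PN15 alone as the early window, which uses fewer arrays, 2 rose and the median was 0.03. The labels do not give the hour of collection, and its part in the levels of clock genes was not tested. Bhlhe40, a repressor within the clock, rose by 0.93 ± 0.09 and Nr1d1, the nuclear receptor REV-ERB alpha, by 0.85 ± 0.12, from 8.89 to 9.54 early to 9.82 to 10.25 late. The metallothioneins Mt1 and Mt2, zinc-binding proteins, rose by 0.76 ± 0.12 (0.41 with the mean of its probe sets) and 0.73 ± 0.14. Cd59a, which protects cells from complement, rose by 0.89 ± 0.05. Igfbp7 and Igf1, of the insulin-like growth factor system, fell by 0.99 ± 0.09 (0.31 with the mean of its probe sets) and 0.69 ± 0.08, in a list of growth factor, insulin and thyroid hormone genes of which 10 of 26 fell and 4 rose (median -0.13, 0.15 when centred). Tet1, an enzyme that oxidises methylated cytosine, fell by 0.92 ± 0.07 and Dnmt3a by 0.69 ± 0.05, while Hdac9, a class II histone deacetylase, rose by 0.89 ± 0.11. Jun, an immediate early factor, fell by 1.18 ± 0.15 (0.73 with the mean of its probe sets), while Fos rose by 0.35 with an adjusted p of 0.0346 (limma). The Fos call was lost without any 1 of the 3 PN13, both PN21 or the PN28 arrays (0.28 to 0.32).

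The change was spread over the steps between ages. From PN13 to PN15, 78 genes rose (0.429% of those tested) and 172 fell (0.945%). From PN15 to PN21, 253 rose (1.39%) and 523 fell (2.87%). From PN21 to PN28 and PN35, 39 rose (0.214%) and 76 fell (0.418%), with 1 array at each of the later ages. When arrays were centred the splits of higher and lower genes were 669 and 29, 120 and 120, and 4458 and 20, and after quantile normalization 142 and 173, and 414 and 551 in the first and second step. Within the first step Hk2, Mef2c, Rskr, a ribosomal S6 kinase-related gene, and Guca1a rose furthest (1.26, 1.17, 0.96 and 0.88). In the second, Aplnr, Psd2, Tubb2b and Calml4 fell furthest (-1.40, -1.24, -1.22 and -1.19). In the third, Aplnr, Cd93, Ets1, a transcription factor of endothelium, and Rgs5, a marker of pericytes, fell furthest (-2.10, -1.31, -1.29 and -1.05). Rgs5 measured 9.90 to 10.28 on every array from PN13 to PN21 and then 9.11 at PN28 and 8.93 at PN35. Without the PN21 replicate 2 array the fall of Ets1 after PN21 was -1.29 with an adjusted p of 0.0528 (limma).

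The falls from PN13 to PN15 were led by interferon-induced genes, which are switched on by type I interferon. Usp18, which removes the ubiquitin-like modifier ISG15, measured 7.81, 8.72 and 7.48 at PN13 and 5.22 and 5.38 at PN15, a difference of -2.70 ± 0.51 (limma, adjusted p = 0.00168). Oasl2, of the oligoadenylate synthetase family, fell by 2.60 ± 0.49, Ifitm3, a membrane protein that restricts virus entry, by 2.39 ± 0.45. Ifit1, which binds foreign RNA, fell by 1.95 ± 0.44. B2m, the light chain of class I molecules, fell by 1.28 ± 0.22. The PN13 and PN15 arrays did not overlap for Usp18, Oasl2, Ifitm3 or Ifit1. These genes were named as the largest falls of this step, so the lack of overlap is not a separate finding. The share of all genes without overlap in this step was not counted. These 4 calls rested on few arrays. Usp18 and Oasl2 passed the threshold no longer without the PN15 replicate 1 array (-2.62 and -2.44, adjusted p = 0.0621 and 0.0749 by limma), nor Ifitm3 without PN15 replicate 2 (-2.37, adjusted p = 0.0544 by limma). Ifit1 lost its call without PN13 replicate 2 (-1.43) or without either PN15 array (-2.14 and -1.76).

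The same genes did not keep one level among the late arrays. Usp18 measured 8.03 and 5.41 on the PN21 arrays, 8.94 at PN28 and 6.58 at PN35. Ifitm3 measured 10.16 and 8.06, then 10.78 and 8.71, so the replicates of PN21 differed by more than the windows did. The late differences were 0.32 ± 0.37 for Usp18 and 0.07 ± 0.33 for Ifitm3, and neither passed. Without PN21 replicate 2 that of Usp18 was 0.93 and passed (limma, adjusted p = 0.0421). At the younger WT ages Usp18 averaged 5.11 to 5.56 from PN5 to PN9, 6.40 at PN11 and 5.48 at PN12. Iigp1, an interferon-induced GTPase, rose from PN15 to PN21 by 1.13, but differed by 0.19 without the PN21 replicate 1 array, and its call was also lost without either PN15 array (0.91 and 1.35). Ddx60 and Ifi27 rose after PN21 by 1.34 and 0.97, but differed by 0.11 and 0.62 without the PN28 array and by 0.82 and 0.60 without PN21 replicate 2, none of which passed. Ifit3 was higher late by 0.84 ± 0.23, and by 0.28, without passing, when the PN28 array was left out. The list as a whole had a median of -0.43 from PN13 to PN15, with 4 of 17 members lower. At PN28 and PN35, with 1 array each, the age and the array cannot be told apart.

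**Figure D4:**
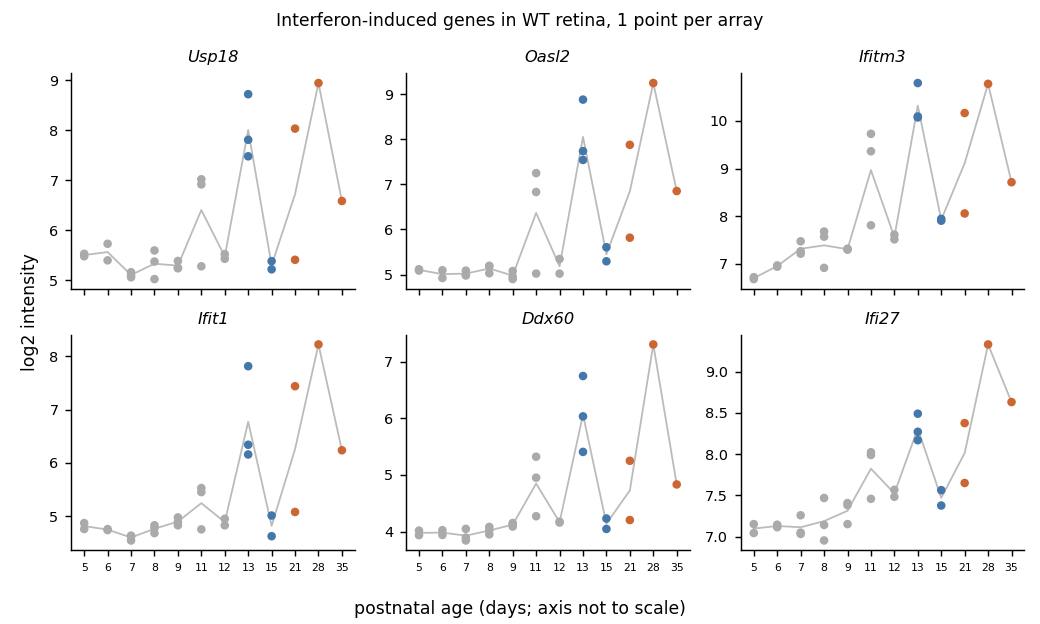
Log2 intensity (vertical axis) of 6 interferon-induced genes in WT retina at each age (horizontal axis, evenly spaced), with 1 point per array and a grey line through the means of the ages. Blue points are PN13 and PN15, orange points PN21 to PN35, grey points younger ages. Usp18 is above 7.4 on the 3 PN13 arrays, below 5.4 on both PN15 arrays, and at 8.03 and 5.41 on the PN21 arrays.

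The promoter of Ifit1 is shown as an example of a gene that fell between PN13 and PN15 (RefSeq, GRCm38.p6, gene strand, 250 bases before to 50 after the start). Capitals mark GAAANNGAA, the core of the interferon-stimulated response element, searched on both strands. Its 3 matches, of which a pair overlap, begin at positions -109, -103 and -84 from the start and run on the opposite strand. Not every leading fall had such a window. That of Oasl2 held no match to these letters, and the matches of Ifitm3 lie after the start, at positions 2 and 19.
Ifit1, chr19:34640639-34640938, plus strand: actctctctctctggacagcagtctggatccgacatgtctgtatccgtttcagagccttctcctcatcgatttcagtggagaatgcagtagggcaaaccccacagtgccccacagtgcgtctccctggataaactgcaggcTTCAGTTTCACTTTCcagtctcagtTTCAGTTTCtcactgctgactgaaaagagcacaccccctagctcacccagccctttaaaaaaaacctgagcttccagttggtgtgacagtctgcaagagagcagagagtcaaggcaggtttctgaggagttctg

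These letters occurred in 8.7% of all windows and in 16.4% of those of genes that fell from PN13 to PN15 (23 of 140 genes with a window). Among the 14 genes that fell by 2-fold or more in that step, 10 had a window and 7 of those held the letters. They also occurred in 11.3% of the windows of genes that rose from PN13 to PN15, in 13.1% of those that rose late by 1.5-fold or more and in 5.97% of those that fell late by as much.

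Muscle and lens genes are given as signs of other tissue in a dissection. Of 17 skeletal muscle genes 8 rose and 1 fell late. Tnnc2, a fast muscle troponin, measured 5.48 to 5.70 on the 5 early and both PN21 arrays, 6.10 at PN28 and 7.51 at PN35. Its late rise of 0.62 became 0.19 without the PN35 array, that of Myl1, a myosin light chain, fell from 0.54 to 0.14, and that of Atp2a1, the calcium pump of muscle, from 0.43 to 0.17. None of the 3 then passed. After PN21 Tnnc2 rose by 1.14, and by 0.43 without the PN35 array, which did not pass. The lens crystallins Cryaa and Crygs differed by 1.37 ± 0.86 and 1.41 ± 0.86 without passing, since Cryaa ranged from 7.17 to 9.42 early and from 6.50 to 11.10 late. The part of such tissue in other genes was not tested. The next statement passes over clones without a gene name and covers only genes whose early and late arrays did not overlap. Among these, the 15 largest rises and 14 of the 15 largest falls, Setd5 being the exception, kept their calls without the PN35 array. They were picked as the largest calls of these same arrays, so this says little about other called genes. Over all genes the calls went from 5412 to 4104 without that array. Dlg2 (-1.97) and Max (-1.46) fell by as much as some of the 15 largest falls but overlapped, and so were not included.

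In rd1 retina, which loses its rods over the same ages, the same windows gave 3651 genes higher (20.1%) and 2554 lower (14%). The WT and rd1 changes come from different arrays, and the difference between them passed the test for 4465 genes, with 1572 (8.64%) more positive in WT and 2893 (15.9%) more negative. All 20 rod genes were among the former. Nrl, the transcription factor that sets rod identity, was 13.37 to 13.48 early and 13.51 to 13.61 late in WT, while in rd1 it lay between 11.90 and 13.00 early and between 7.20 and 9.07 late. The difference of changes was 4.60 ± 0.07 (limma, adjusted p = 5.44e-37). Some of the leading WT rises were larger than those of rd1. Mef2c rose in WT and fell by 0.60 in rd1, Hk2 differed by 0.04 in rd1 without passing, and the differences of changes were 3.19 ± 0.12 and 1.75 ± 0.12. For Sgk1, which rose by 0.42 in rd1, it was 2.02 ± 0.13.

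Other WT changes occurred in rd1 as well. Pvalb rose by 1.65 in rd1, and the difference of changes, -0.31 ± 0.14, did not pass (limma, adjusted p = 0.115). Cd93 fell by 1.66 in rd1, with a difference of 0.34 ± 0.14 that did not pass either (limma, adjusted p = 0.0695), and Aplnr fell by 3.18, that is by more than in WT (0.52 ± 0.13). Gnat2 rose by 0.76 in rd1, with a difference of 0.08 that did not pass. Of the 36 neurite genes, 14 fell and 9 rose in rd1, and the median there was -0.05. The difference was more negative in WT for 28 of them, among them Tubb2b (-0.84 ± 0.15), which fell by 1.17 in rd1. The median difference of changes over the neurite list was -0.39. It was not particular to that list, being -0.39 for amacrine and ganglion cell genes and -0.38 for bipolar and Müller glia genes. The rod median was -2.18 in rd1. Pigment epithelium genes had a median of -0.07 in WT (0.21 when centred) and 0.77 in rd1, and 11 of 17 were more negative in WT. Centring arrays on amacrine and ganglion cell genes moved the median difference of changes over all genes from 0.00 to 0.47, and the split into 14109 positive and 106 negative calls.

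**Figure D5:**
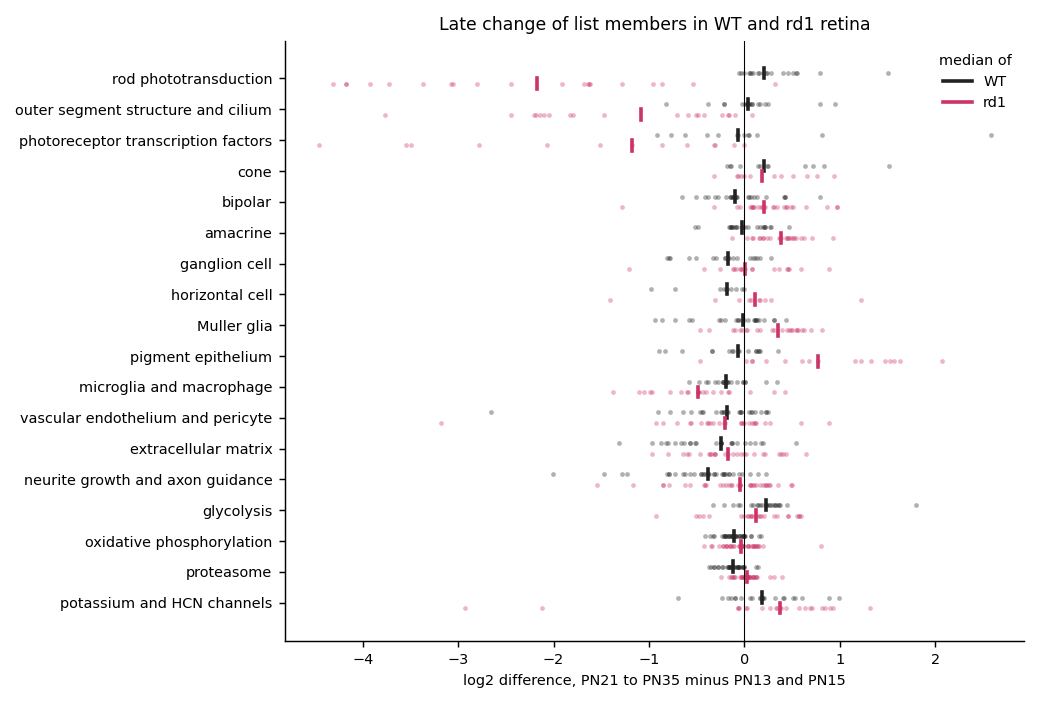
Late minus early log2 difference (horizontal axis) of the members of 18 gene lists in WT (black, 4 against 5 arrays) and rd1 retina (red, 4 against 5 arrays), with a tick at each median. Rod phototransduction genes have medians of 0.21 in WT and -2.18 in rd1, and neurite growth genes of -0.38 and -0.05.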

How the data were processed

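The deposited table holds 1 linear intensity per probe set and array, made by the authors with RMA per the submitters' processing notes, whose version and joint normalization are not given in the sources used here. Per the labels, RNA came off a caesium gradient and became biotin-labelled cRNA. Of 45037 probe sets, 34945 name 1 symbol, 932 several and 9160 none. Only the first were used, with the brightest probe set (highest mean over all arrays) standing for each of 18193 genes. A log2 scale had been assumed in the design, so log2 was taken of the deposited intensity.

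limma 3.58.1 in R 4.3.3 was fitted to all 54 arrays with a mean for each of the genotype-age groups, leaving 30 residual degrees of freedom, and empirical Bayes moderation followed the intensity. Benjamini-Hochberg adjustment ran over all genes, with 0.05 as the threshold. The number of arrays limits the precision. The procedure was tested on simulated data.

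The 47 lists (1109 entries), the pairs and the windows were chosen with earlier results of these data known. Genes named, with clone, predicted-gene and tag names left out, are the 15 largest rises and falls without overlap, the 4 largest each way per step, the 5 largest each way against rd1, up to 5 members per list and the pairs. Other genes named were chosen after their values were seen. Alternatives were other normalizations, centring, filters, probe set means, moderation, weights, windows, a replicate block and leaving out arrays.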

Additional observations from a re-analysis of the deposited data

Results flagged for a closer look

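The late change differed between WT and rd1 retina, by the test of the difference itself, for 4465 genes. Among the genes named, the difference of changes (WT minus rd1, log2) was positive for Nrl (4.60), Gnat1 (4.47), Cnga1 (4.42), the rod channel, Slc24a1 (4.38), the rod calcium exchanger, and Pde6b (4.37). It was negative for Ttr (-2.22), a thyroxine and retinol carrier, Gja1 (-2.20), a gap junction protein, and for Dct (-2.11), Pmel (-1.99) and Rgr (-1.94), which pigment epithelium expresses. These values are given without an explanation. No age of one genotype had more than 3 arrays, so single arrays were not tested as outliers.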

How the results depend on the processing

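The count of late changes was 5412. It lay between 4104 (without PN35) and 5430 when single arrays were left out, and was 13511 (13070 higher, 441 lower) after centring on amacrine and ganglion cell genes, 3309 without PN28 and PN35 and 1893 with PN15 alone as the early window, the last 2 using fewer arrays. Centring moved the median of all genes from 0.03 to 0.31, while distances of list medians from it are unaffected. For PN13 to PN15 (250) the count was 698 after centring (669 higher, 29 lower), 985 with array weights, and 60 to 190 without single arrays, and quantile normalization gave 142 higher and 173 lower. For PN15 to PN21 (776) it was 240, 2623 and 232 to 488. For PN21 to PN28 and PN35 (115) it was 4478 (4458 higher, 20 lower), 563 and 39 to 73, and 224 after quantile normalization. The difference between WT and rd1 (4465) gave 14215 after centring and 3917 to 4972 without single arrays. Array weights stopped before reaching their tolerance. The 16 pairs became 9 with the mean of all probe sets, and the cause was not tested. Without single arrays they became 0 to 17, where the exact test has fewer choices and a larger smallest p. A replicate block gave 5294 late changes, 235, 894 and 154 per step and 4242 against rd1. Same-numbered arrays deviated together with r between -0.13 and 0.05, so the numbers do not pair them.

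Centring turned the late difference of Mgp (0.0102), Onecut1 (0.0679), Gjd2 (0.0832), Tfap2b (0.13), Slc12a2 (0.0485), Ndufa4 (0.0404), Rps19 (0.11), Rps9 (0.11), Rpl6 (0.11), Ldha (0.21), Cox6a1 (0.12), Cox7a2 (0.0786), Cox4i2 (0.25), Tubb4a (0.0816) and Atp1b2 (0.25), and the mean of all probe sets turned Ugt8a (-0.0884) and Lmna (-0.0753). Over all named results and alternatives, 6143 values kept direction and side of the threshold, 431 came to miss it and 88 to pass it with direction kept, and 77 turned, of which 17, the ones just given, passed in either fit and 60 in neither. Signal over background was not used here and limits dim genes.

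Of the late differences that passed in neither fit, centring turned Foxc1 (0.0669), Slc4a1 (0.235), Alas2 (0.248), Mog (0.107), Ppara (0.125), Grin3a (0.167), Gabra2 (0.115), Gabra3 (0.133), Slc17a6 (0.108), Cox4i1 (0.147), Gnb3 (0.128) and Elovl2 (0.184). Leaving out PN28 and PN35 turned Usp18 (-0.201), Oasl2 (-0.165), Ifitm3 (-0.251), Ddx60 (-0.565), Rgr (-0.216), Alas2 (0.0645), Scn8a (-0.0082), Cox4i2 (0.0537), Cox6a2 (-0.0020) and Cox7a1 (-0.0740). The mean of all probe sets turned Slc4a1 (0.0101), Glra1 (-0.0577), Scn8a (-0.0195), Syt2 (-0.0406) and Gnb1 (-0.0336). PN15 alone turned Hbb-b2 (-0.0261), Scn8a (-0.0381), Opn1mw (-0.0554), Cox7a1 (-0.0377) and Elovl2 (0.156). Quantile normalization and equal weights for ages turned Hbb-b2 (-0.0417 and -0.0555), and array weights Scn8a (-0.0116). Without single arrays the late difference ranged from -0.246 to 0.932 for Usp18, -0.163 to 0.979 for Oasl2, -0.383 to 0.523 for Ifitm3, -0.530 to 0.502 for Ddx60, -0.0676 to 0.0092 for Alas2, -0.0509 to 0.0931 for Hbb-b2, -0.0328 to 0.0373 for Scn8a, -0.0595 to 0.0324 for Cox4i2, -0.0007 to 0.225 for Cox6a2 and -0.0023 to 0.249 for Rgr.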
